A study of Homo sapiens with 12 samples.

Results

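The feedback regulators of the Wnt pathway, which the pathway switches on and which in turn restrain it, were followed through 12 dual-color arrays. Members were the 10 genes AXIN2, NKD1, NKD2, DKK1, DKK4, NOTUM, RNF43, ZNRF3, APCDD1 and SP5. Every probe whose RefSeq accession maps to a member was taken, which gave 15 probes of 1 spot each, out of 43376 non-control features that cover 17240 named genes. AXIN2, NKD2, ZNRF3 and SP5 have several probes, and each probe is described apart. A further AXIN2 spot that carries another kind of accession lies outside this choice and was not used here.

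RNA came from Ls174T, a human colorectal cancer line whose β-catenin carries a stabilizing mutation, and from HEK293T, a human embryonic kidney line with an intact pathway that answers to added Wnt. All cells had been transfected with siRNA pools at 15 nM for 72 h. Ls174T cells received si-b-catenin, si-MLLT10, si-BRG1, si-P300 or si-control. HEK293T cells received si-control followed by 9 h of control medium (CM) or of Wnt3A conditioned medium, or si-MLLT10, si-DOT1L, si-BRG1 or si-P300 followed by 9 h of Wnt3A. Ls174T si-b-catenin RNA was hybridized against si-control RNA on 2 arrays with the dyes exchanged, and the other 10 arrays each set 1 sample against universal human reference RNA. Each condition is 1 biological sample, and exchanging the dyes repeats the reading of that sample. Differences between conditions therefore stand without biological replicates, and p-values were not computed. The HEK293T knockdowns were measured only after Wnt3A, so a knockdown's effect without Wnt3A cannot be told apart from its effect on the response.

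In the Wnt pathway, a secreted Wnt ligand binds Frizzled and LRP receptors, β-catenin escapes destruction and joins TCF/LEF factors on DNA, and the target genes include several of the pathway's own inhibitors. These act at every level. NOTUM strips a lipid from Wnt itself, DKK1 and DKK4 are secreted proteins of the Dickkopf family, APCDD1 is a membrane protein that inhibits Wnt, and RNF43 and ZNRF3 are ubiquitin ligases that remove Frizzled receptors. Inside the cell, NKD1 and NKD2 bind Dishevelled, AXIN2 is a scaffold of the β-catenin destruction complex, and SP5 is a zinc finger transcription factor. In intestinal crypts and in colorectal cancer, AXIN2 and RNF43 are widely used as readouts of pathway activity.

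The promoters of SP5 and DKK1 are shown because DKK1 and SP5 probes A_23_P135381 and A_32_P183718 were higher on every Wnt3A array than on the CM array in the deposited ratios. This direction turns under 1 background setting given beside the Wnt3A results, and SP5 probe A_32_P74615 did not share it. They are RefSeq windows on GRCh38.p14 from 250 bases before to 50 bases after the gene start. Capitals mark the TCF/LEF-type words ATCAAAG and TTCAAAG, which were searched on both strands and read CTTTGAT and CTTTGAA on the other strand.
SP5, chr2:170715087-170715386, plus strand: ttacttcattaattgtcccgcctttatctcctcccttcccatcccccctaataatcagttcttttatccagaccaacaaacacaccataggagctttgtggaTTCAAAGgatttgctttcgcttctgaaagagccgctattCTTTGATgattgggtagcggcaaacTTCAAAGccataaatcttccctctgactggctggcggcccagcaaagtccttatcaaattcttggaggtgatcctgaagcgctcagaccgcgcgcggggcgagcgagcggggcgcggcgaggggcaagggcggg
DKK1, chr10:52314031-52314330, plus strand: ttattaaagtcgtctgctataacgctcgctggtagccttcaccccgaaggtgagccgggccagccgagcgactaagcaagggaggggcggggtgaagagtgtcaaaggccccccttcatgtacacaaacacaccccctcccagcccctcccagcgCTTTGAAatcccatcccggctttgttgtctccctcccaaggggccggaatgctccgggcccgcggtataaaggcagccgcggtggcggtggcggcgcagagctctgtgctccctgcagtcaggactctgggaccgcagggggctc
In the SP5 window TTCAAAG began at −148 and −84 from the gene start and CTTTGAT at −109. In the DKK1 window CTTTGAA began at −95. ATCAAAG was held by 2.62% and TTCAAAG by 4.43% of all 35116 promoter windows. Of the 6 member windows searched, which belong to SP5, DKK1, NKD2, APCDD1 and RNF43, 1 held ATCAAAG and 2 held TTCAAAG. The GC box GGGCGG was held by 45.0% of all windows and by 4 of these 6. A match describes letters and is not a bound site. Promoters of AXIN2, NKD1, NOTUM, ZNRF3 and DKK4 were not analysed here.

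Between 18104 and 31011 features per array were well-measured, meaning that the signal of either channel exceeded 2-fold the local background. The error that the reading program attaches to each log2 ratio was 0.21 to 0.23 at the median of an array. It covers the reading of the array and leaves out the spread between cultures. Of 17 readings of siRNA target genes under their own siRNA, 16 fell more than 1.5-fold, and the exception was 1 of the 3 probes of DOT1L at 0.17 on the log2 scale. All 12 colon epithelial marker genes were well above background on every Ls174T array and 7 of them on every HEK293T array, and 26 of their 27 features were higher in Ls174T than in HEK293T. Of the 7 HEK293T markers on the array, 6 were well above background on every HEK293T array and 3 on every Ls174T array, and of 5 fibroblast genes 3 were so in each line. Of the 11 features of the HEK293T markers 2 were higher in Ls174T, among them PAX8 probe A_23_P210001 (medians 0.355 against −2.912). The 12 arrays lay on 5 slides. Both arrays of the si-b-catenin pair shared a slide, Ls174T si-control and si-MLLT10 lay with HEK293T si-BRG1 and si-P300, and Ls174T si-BRG1 and si-P300 shared another. HEK293T CM, si-MLLT10 and si-DOT1L shared a slide, and HEK293T si-control with Wnt3A lay alone on its own. Slide and siRNA therefore cannot be told apart for si-BRG1 and si-P300 in Ls174T, nor slide and Wnt3A for the si-control pair of HEK293T, nor slide and siRNA for any HEK293T knockdown against si-control with Wnt3A. Of the HEK293T comparisons, only si-MLLT10 and si-DOT1L against CM lie within a slide.

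Relative to the reference RNA, RNF43 and AXIN2 stood highest among the readouts that separated the lines, both in favor of Ls174T. RNF43 had log2 ratios of 2.96 with si-control, 2.93 with si-MLLT10, 2.86 with si-BRG1 and 2.82 with si-P300 in Ls174T, and ran from −1.40 to −0.31, with a median of −1.16, over the 6 HEK293T arrays. Every Ls174T array thus lay far above every HEK293T array. AXIN2 probe A_23_P148015 had 2.51, 2.69, 2.52 and 2.29 in Ls174T in the same order, against −0.62 to 0.46 in HEK293T. The reverse held for NKD2 probe A_23_P41804, with −3.90 to −3.73 in Ls174T and 0.01 to 0.71 in HEK293T, and for APCDD1, with −2.59 to −2.33 in Ls174T and −0.82 to 0.17 in HEK293T. The DKK1 sample signal did not clear background on any of the 4 Ls174T arrays. It cleared it on all 6 HEK293T arrays, with ratios of −4.34 to −2.94. SP5 was low against the reference in both lines and lower in HEK293T, at −3.90 to −2.26 against −6.30 to −5.29 on probe A_23_P135381 and at −4.41 to −2.81 against −6.95 to −5.70 on probe A_32_P183718. NKD1, NOTUM and both probes of ZNRF3 overlapped between the lines. In all, 7 of the 13 member probes that were well-measured on all 10 reference arrays did not overlap between the lines, and 57.6% of 25650 such features did not, so the share of the members lay near the background. DKK4 was well-measured on no reference array.

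**Figure D1:**
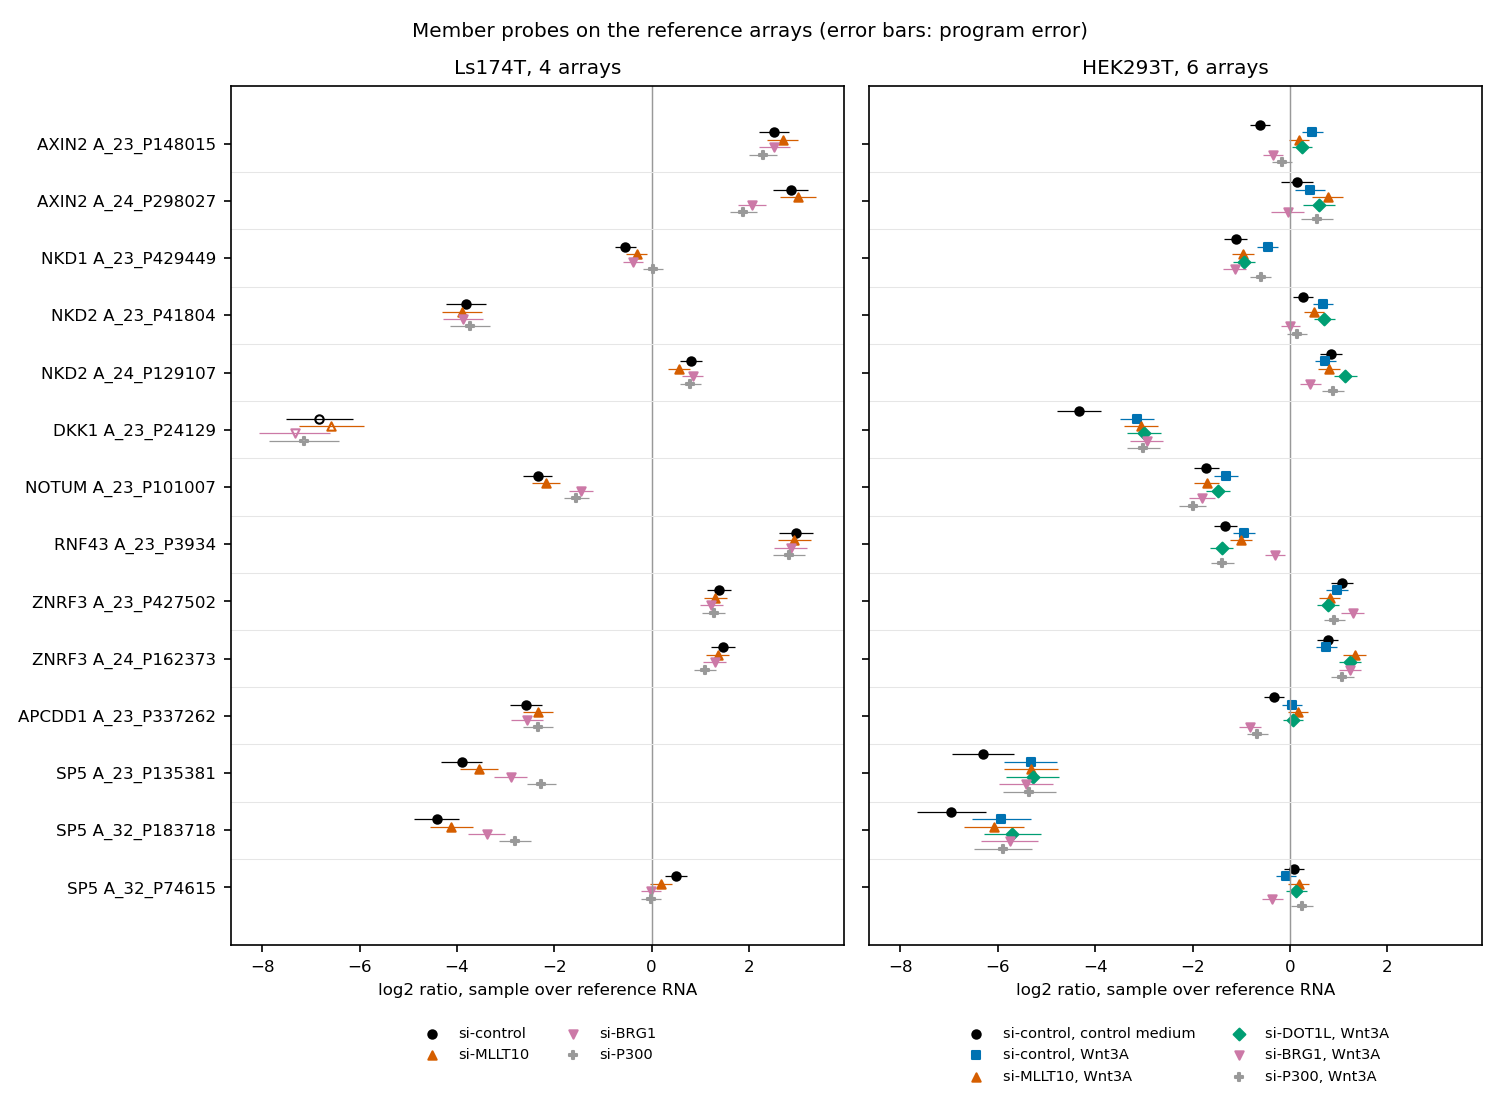
Log2 ratio of sample over reference RNA (horizontal axis) for 14 member probes on the 4 Ls174T (left) and 6 HEK293T (right) reference arrays, 1 point per array with the program error as bar. Open symbols mark a sample channel that was not well above background, as for DKK1 in Ls174T, and RNF43 in Ls174T lies between 2.82 and 2.96.

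The question of the si-b-catenin pair was which regulators depend on β-catenin in Ls174T. Before its values, a property of the second array of the pair matters. The factor between the processed and the background-subtracted Cy5 signal was 1.0 at the median on the first array, with 5th to 95th percentiles of 0.935 to 1.18, and 1.1 on the second array, with 0.697 to 5.48. On the second array this factor was 8.51 for RNF43, 9.24 for NKD2 probe A_24_P129107 and 2.24 for AXIN2 probe A_23_P148015, so both arrays are given below, and the part of this factor in the values was not tested.

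SP5 and AXIN2 fell most among the well-measured members. SP5 probe A_23_P135381 read −3.22 and −3.08 on the log2 scale on the first and second array, with a mean of −3.15 (program error 0.27). SP5 probe A_32_P183718 read −2.58 and −2.51, with a mean of −2.54 (program error 0.26). In the depleted channel neither of these SP5 probes was well above background on either array, so the sizes of both falls are uncertain. On a signal scale other than that of the processed signals, the first had mean log2 signals of 10.01 with si-control and 6.85 with si-b-catenin. At these measured signals it was 8.94-fold lower. The second had 8.64 and 6.03. Set against the lowest signal well above background, or the probe's own signal where higher (6.125), it was 5.73-fold lower. These folds belong to that scale and are not bounds for other processing. AXIN2 probe A_23_P148015 read −2.05 and −1.89, a mean of −1.97 (program error 0.19), with both channels well above background on both arrays. With the signals rebuilt by normexp background correction and loess dye normalization in place of the processed signals, which changes both steps together, the SP5 probes read −1.60 and −1.02, and AXIN2 read −1.72. In these bulk samples, fewer cells that express a gene and less RNA per cell cannot be told apart.

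The ubiquitin ligases moved less than SP5 and AXIN2. ZNRF3 read −1.21 and −1.15 on probe A_23_P427502 (mean −1.18, program error 0.17) and −1.17 and −0.86 on probe A_24_P162373 (mean −1.01, program error 0.16), so that both probes fell more than 2-fold and the second by a narrow margin. Both were short of 2-fold with normexp and loess, at −0.75 and −0.94. RNF43 read −1.02 and −0.89, a mean of −0.96 (program error 0.12), which is a 1.94-fold difference and stays short of the threshold. Its raw median signals were 5585 in Cy5 and 7480 in Cy3 on the first array, against 351 and 152.5 on the second, where the depleted RNA was in Cy3.

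Of the remaining members, APCDD1 and DKK4 had negative values on both arrays, but neither was well-measured on the second. APCDD1 read −2.68 and −3.20. Set against the lowest signal well above background, on the same scale as for SP5, it was at least 3.15-fold lower (mean log2 signals 7.62 and 4.65). DKK4 read −1.76 and −1.03, at least 2.01-fold lower on that scale (7.43 and 6.00), with its si-control signal well above background on 1 of the 2 arrays. NKD1 read −0.40 and −1.56, the second not well-measured, and the second AXIN2 probe A_24_P298027 read −1.92 and −0.70, the second again not well-measured. NOTUM, at 0.45 and −0.28, changed sign between the arrays and was well-measured on neither. DKK1 and NKD2 probe A_23_P41804 had no usable signal on either array, which the program writes as a ratio of exactly 0. The third SP5 probe, A_32_P74615, read 0.21 and −0.17 and the second NKD2 probe, A_24_P129107, read 0.26 and 0.01, both well-measured on both arrays.

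Counted over the pair, 5 of the 8 well-measured member probes fell more than 2-fold (SP5 on 2 probes, ZNRF3 on 2 and AXIN2 on 1, hence 3 of 5 genes), and none rose. Of all 17706 well-measured features 1.36% fell that far. The median over the 8 member probes was −1.09, and that over all features −0.02. With the threshold on the first array alone 9 of 12 well-measured member probes fell, and on the second alone 4 of 8.

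**Figure D2:**
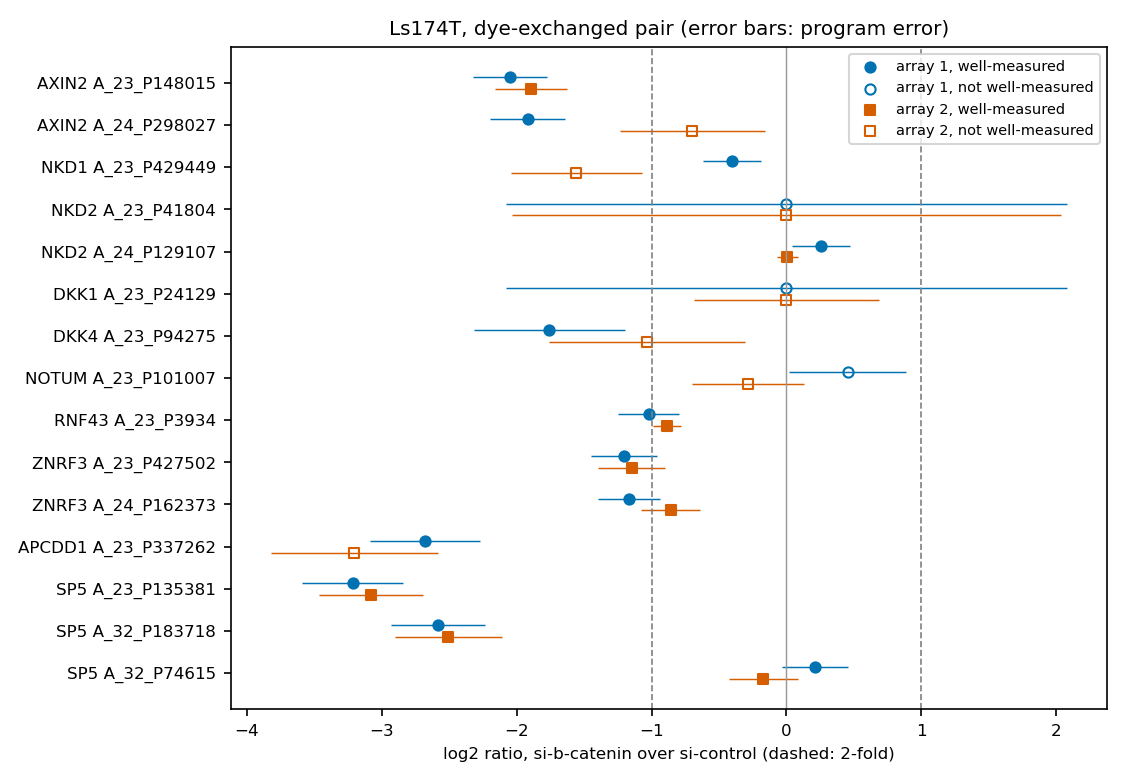
Log2 ratio of si-b-catenin over si-control RNA (horizontal axis) for the 15 member probes on the first (circles) and second, dye-exchanged array (squares), with the program error as bar, open symbols for probes that were not well-measured and dashed lines at 2-fold. The SP5 probe A_23_P135381 lies at −3.22 and −3.08, and the probe A_32_P74615 of the same gene lies at 0.21 and −0.17.

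Depletion of MLLT10, BRG1 or p300 in Ls174T asked whether these coactivators are needed where the pathway is constantly on. AXIN2 probe A_23_P148015 differed from si-control by 0.18 after si-MLLT10, 0.01 after si-BRG1 and −0.22 after si-P300 (program errors 0.43 to 0.45), all less than the error. RNF43 differed by −0.03, −0.11 and −0.14 (program error 0.48 each), and the ZNRF3 probes by −0.37 to −0.08. None of these reached 2-fold.

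SP5 was the exception. On probe A_23_P135381 the log2 ratio to the reference was −3.90 with si-control, −3.54 with si-MLLT10, −2.89 with si-BRG1 and −2.26 with si-P300, and on probe A_32_P183718 it was −4.41, −4.12, −3.39 and −2.81 in the same order. The processed sample signal of the first probe ran 423, 577, 932 and 1549, while its reference signal stayed between 6316 and 7436. SP5 therefore rose on these probes by 1.00 and 1.02 after si-BRG1 (program errors 0.54 and 0.60). After si-P300 they rose by 1.64 and 1.60 (0.51 and 0.57), and after si-MLLT10 they differed by 0.36 and 0.30 (0.57 and 0.64). The third SP5 probe, A_32_P74615, went the other way, short of 2-fold. It differed by −0.31 after si-MLLT10, −0.52 after si-BRG1 and −0.51 after si-P300 (program errors 0.33, 0.31 and 0.31). The rise after si-BRG1 sat at the threshold (2.01- and 2.03-fold) and was 0.66 and 0.80 with normexp and loess once outlying backgrounds were replaced by the median of the array. Both si-BRG1 and si-P300 lay on a slide of their own.

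NOTUM read −2.34 with si-control, −2.18 with si-MLLT10, −1.45 with si-BRG1 and −1.55 with si-P300. The differences of 0.89 and 0.80 for the last 2 siRNAs (program error 0.39 each) did not reach 2-fold, though with the sample channel alone, without the division by the reference, they were 1.31 and 1.20. With normexp and loess they were 1.17 and 0.98 on the backgrounds as scanned. They were 0.38 and 0.29, less than the error, once outlying backgrounds were replaced by the median of the array. NKD1 read −0.54, −0.30, −0.38 and 0.03, and after si-P300 it differed by 0.57 (program error 0.30). With normexp and loess this difference was 0.44 on the backgrounds as scanned and 0.25 with outlying backgrounds replaced. APCDD1 and NKD2 probes A_23_P41804 and A_24_P129107 differed by less than their errors after each siRNA. The dim AXIN2 probe A_24_P298027 read 2.86, 3.01, 2.07 and 1.88, with a processed sample signal between 153.0 and 180.2 on all 4 arrays and a reference signal of 21.1, 21.0, 43.0 and 41.6. Its differences of −0.79 and −0.98 after si-BRG1 and si-P300 thus went along with a brighter reference channel, and with the sample channel alone they became 0.29 and 0.05.

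Of 14 well-measured member probes none changed more than 2-fold after si-MLLT10, where 1.74% of all features did. After si-BRG1 and after si-P300 2 of 14 rose, both of them SP5, beside 5.26% and 5.9% of all features that changed either way, and none fell. The members' medians were 0.16, −0.02 and −0.07, against −0.02, −0.02 and 0.02 over all features. The 3 comparisons share the si-control array.

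In HEK293T cells the si-control arrays compared 9 h of Wnt3A with CM. DKK1, AXIN2, SP5 and NKD1 rose more than 1.5-fold, although the sign of the DKK1, SP5 and NKD1 differences turned with normexp and loess on the backgrounds as scanned (DKK1 −1.36, SP5 −2.33 and −2.73, NKD1 −0.44) and did not turn when outlying backgrounds were first replaced by the median of the array (DKK1 1.02, SP5 0.68 and 0.55, NKD1 0.34). DKK1 read −4.34 in CM and −3.14 with Wnt3A, a rise of 1.19 (program error 0.58), its processed sample signal going from 175.0 to 447.8 at a reference signal of 3532 and 3951. AXIN2 probe A_23_P148015 read −0.62 and 0.46, a rise of 1.08 (program error 0.30), more than 3 times the error, which shrank to 0.33 with normexp and loess on the backgrounds as scanned. SP5 had sample signals of only 1.9 to 3.35 times the local background on these arrays. It read −6.30 and −5.33 on probe A_23_P135381 and −6.95 and −5.93 on probe A_32_P183718, rises of 0.97 and 1.02 whose program errors of 0.84 and 0.92 are nearly as large. NKD1 read −1.12 and −0.46, a rise of 0.66 (program error 0.32).

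Other members did not reach 1.5-fold. NKD2 probe A_23_P41804 and NOTUM differed by 0.41 each (program errors 0.30 and 0.35), RNF43 by 0.38 (0.32) and APCDD1 by 0.37 (0.30). These are all above 0 and close to their errors. The ZNRF3 probes differed by −0.10 and −0.03, SP5 probe A_32_P74615 by −0.16 and NKD2 probe A_24_P129107 by −0.12. AXIN2 probe A_24_P298027 and DKK4 were not well-measured on these arrays. In all, 5 of 13 well-measured member probes (4 of 9 genes) rose and none fell, beside 4.04% of all 29012 features that rose, and the members' median was 0.41 against −0.01 over all features. At 2-fold, 3 of the 13 rose, beside 1.85% of all features past 2-fold either way.

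Each knockdown with Wnt3A was then set against si-control with Wnt3A, which asked whether the siRNA lowered the induced level, and against CM, which asked how much of the rise was left. These comparisons share the si-control Wnt3A array or the CM array, and si-MLLT10 and si-DOT1L lie on the same slide as CM. The AXIN2 readings are given from the lowest to the highest. Probe A_23_P148015 read −0.62 in CM, −0.34 with si-BRG1, −0.16 with si-P300, 0.19 with si-MLLT10, 0.24 with si-DOT1L and 0.46 with si-control, the last 5 with Wnt3A. Neighbors in this order differed by less than the program error of a difference (0.29 to 0.30), apart from si-P300 and si-MLLT10, whose gap was slightly larger than it. The arrays of si-P300 and si-MLLT10 also lay on different slides. Against si-control with Wnt3A, AXIN2 fell by 0.81 after si-BRG1 and 0.63 after si-P300 (program error 0.29 each) and differed by −0.27 after si-MLLT10 and −0.22 after si-DOT1L. Against CM it still rose by 0.81 and 0.86 after si-MLLT10 and si-DOT1L (program error 0.30 each), and stayed short of 1.5-fold at 0.27 and 0.45 after si-BRG1 and si-P300. With the sample channel alone the falls after si-BRG1 and si-P300 shrank to −0.56 and −0.29, short of 1.5-fold. In that setting si-MLLT10 and si-DOT1L lay 0.104 and 0.195 above si-control with Wnt3A, so si-control no longer stood highest. With normexp and loess on the backgrounds as scanned the rises after si-MLLT10 and si-DOT1L against CM shrank to 0.08 and 0.21.

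DKK1 and SP5 probes A_23_P135381 and A_32_P183718 lay within the error of the level they had with si-control and Wnt3A. DKK1 read −3.07 with si-MLLT10, −3.00 with si-DOT1L, −2.94 with si-BRG1 and −3.01 with si-P300, which is 0.07 to 0.20 from si-control with Wnt3A (program errors 0.49 to 0.50) and 1.27 to 1.40 above CM (0.57 to 0.58). SP5 probe A_23_P135381 read −5.32, −5.29, −5.42 and −5.35 in the same order, and probe A_32_P183718 −6.08, −5.70, −5.75 and −5.89. Every one of these values lay above the CM reading of its probe, by 0.88 to 1.25, and within 0.23 of the si-control Wnt3A reading, and as for Wnt3A alone the sign against CM turned for DKK1 and SP5 with normexp and loess on the backgrounds as scanned and in no other setting. The CM array is the single low point of all 5 differences, and the program error of each difference of these SP5 probes to CM was 0.84 to 0.93. SP5 probe A_32_P74615 differed from si-control with Wnt3A by 0.26, 0.21, −0.285 and 0.325 in the same order (program error 0.30 each). Against CM it differed by 0.095, 0.049, −0.449 and 0.16.

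**Figure D3:**
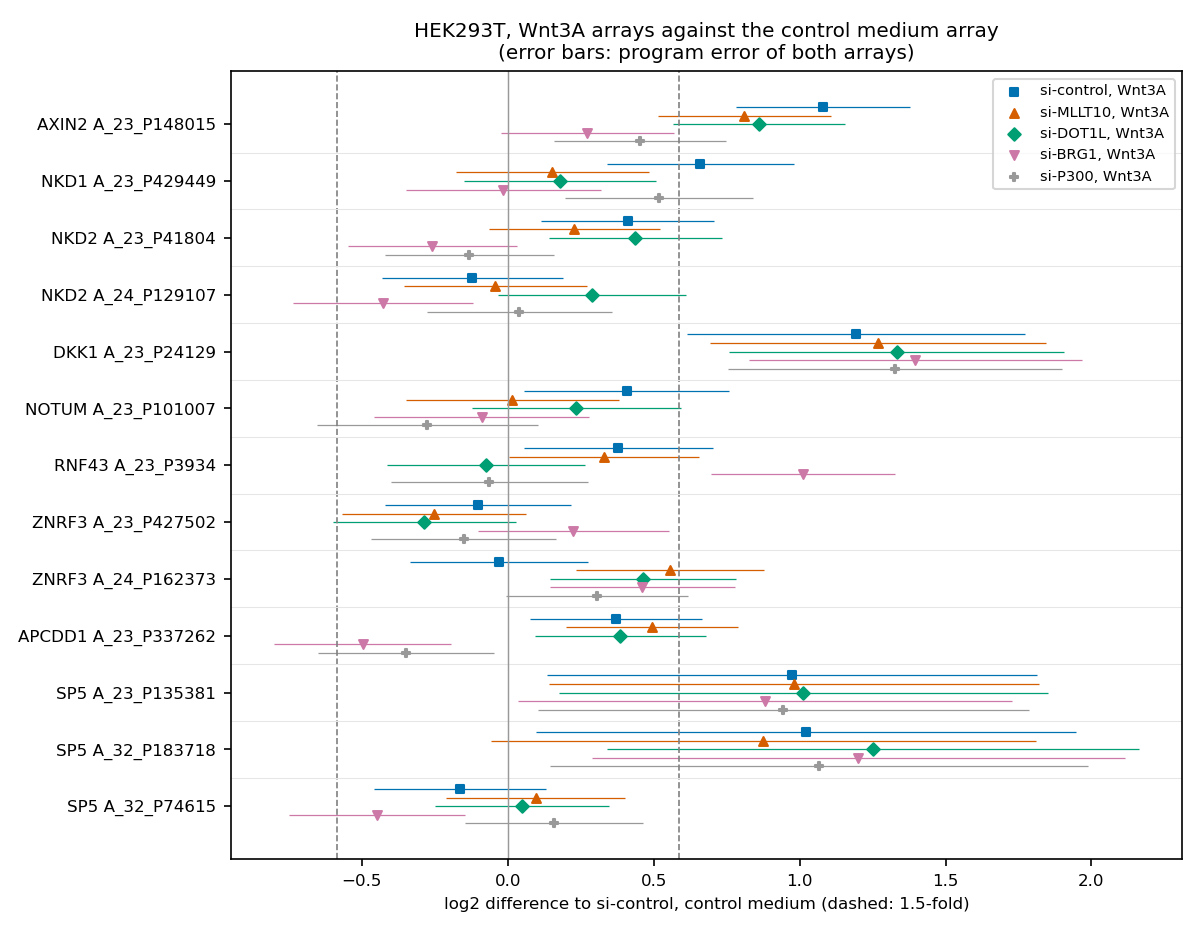
Log2 difference to si-control in CM (horizontal axis) of the 5 HEK293T arrays with Wnt3A for 13 well-measured member probes, with the program error of both arrays as bar and dashed lines at 1.5-fold. All points share the CM array, and for DKK1 they lie between 1.19 and 1.40, though below 0 with normexp and loess on the backgrounds as scanned. In that setting those of SP5 probes A_23_P135381 and A_32_P183718 also lie below 0.

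Members that restrain the pathway inside the cell or at the surface varied by siRNA. NKD1 read −1.12 in CM, −0.46 with si-control and Wnt3A, −0.96 with si-MLLT10, −0.94 with si-DOT1L, −1.13 with si-BRG1 and −0.60 with si-P300. Against si-control with Wnt3A it fell by 0.68 after si-BRG1 (program error 0.32), a value that was 0.27 with normexp and loess on the backgrounds as scanned, while −0.51 and −0.48 after si-MLLT10 and si-DOT1L stayed short of 1.5-fold, which they passed with the sample channel alone (−0.75 and −0.77). NKD2 probe A_23_P41804 fell by 0.67 after si-BRG1 (program error 0.30) and differed by −0.54 after si-P300, and the si-BRG1 fall was short of 1.5-fold with normexp and loess on the backgrounds as scanned. APCDD1 read −0.33 in CM, 0.05 with si-control and Wnt3A, 0.17 and 0.06 with si-MLLT10 and si-DOT1L, and −0.82 and −0.67 with si-BRG1 and si-P300, so that it fell by 0.87 and 0.72 in the last 2 (program error 0.30 each) and lay below the CM reading. The reference signal of APCDD1 was 454 on the si-BRG1 array and 257 to 309 on the other 5, and with the sample channel alone its si-BRG1 difference was −0.29. With normexp and loess on the backgrounds as scanned its falls after si-BRG1 and si-P300 were −0.15 and −0.58, both short of 1.5-fold. NOTUM read −1.31 with si-control and Wnt3A and −2.00 with si-P300, a fall of 0.68 (program error 0.36), and −1.72 in CM. The fall was −0.49 with normexp and loess, short of 1.5-fold.

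RNF43 had the largest rise of any member against si-control with Wnt3A, after si-BRG1. It read −1.33 in CM, −0.95 with si-control and Wnt3A, −1.40 with si-DOT1L, −0.31 with si-BRG1 and −1.39 with si-P300, and with si-MLLT10 it differed by −0.05 from si-control with Wnt3A. Its processed sample signal was 1523 with si-BRG1 and 566 to 873 on the other 5 arrays, at reference signals of 1481 to 1894. The rise after si-BRG1 was 0.63 against si-control with Wnt3A (program error 0.30) and 1.01 against CM (program error 0.32). The first was 0.56 with the sample channel alone, short of 1.5-fold, and 0.78 with normexp and loess on the backgrounds as scanned. The second was 0.93 and 0.27 in these settings. ZNRF3, its paralog, had differences of 0.34 to 0.59 on probe A_24_P162373 over the 4 knockdowns against si-control with Wnt3A (program errors 0.31 to 0.32), of which 0.59 after si-MLLT10 just passed 1.5-fold. On probe A_23_P427502 the same differences were −0.18 to 0.33, so the probes of ZNRF3 disagreed in sign after 3 of the 4 siRNAs.

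Against si-control with Wnt3A, 1 of 13 well-measured member probes changed more than 1.5-fold after si-MLLT10 and 0 after si-DOT1L, beside 7.43% and 5.77% of all features. After si-BRG1 4 fell and 1 rose, beside 22.2% of all features that changed, and after si-P300 3 fell, beside 12.3%. The si-BRG1 count turned to 4 rises and no fall with normexp and loess on the backgrounds as scanned, where both SP5 probes (1.30 and 1.98), DKK1 (0.84) and RNF43 (0.78) were past 1.5-fold, and it was 5 falls and no rise with the sample channel alone. The members' medians were −0.05 after si-MLLT10, 0.03 after si-DOT1L, −0.28 after si-BRG1 and −0.05 after si-P300, and those of all features lay between −0.004 and 0.013. Against CM, 4 member probes rose after si-MLLT10, 4 after si-DOT1L, 4 after si-BRG1 and 3 after si-P300, and none fell. The shares of all features that rose were 4.06%, 3.1%, 7.07% and 4.48%. Medians of the members were 0.33, 0.38, 0.22 and 0.16. With normexp and loess on the backgrounds as scanned the members past 1.5-fold against CM were all falls, 5, 6, 3 and 7 in the same order.

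The several probes of SP5 and NKD2 did not agree. SP5 probe A_32_P74615 lay within 0.50 of the reference on all 10 reference arrays, where the other SP5 probes lay between −6.95 and −2.26, and it did not move with β-catenin. NKD2 probe A_24_P129107 lay between 0.42 and 1.14 in both lines, where the medians of probe A_23_P41804 differed by −4.23 (Ls174T minus HEK293T). In these 2 probes the reference signal, which is the same RNA on every array, varied most among the members, by 5.89-fold for NKD2 probe A_24_P129107 and 4.46-fold for SP5 probe A_32_P74615 between the brightest and the dimmest array. Over all features well above background the median of this quotient was 1.79 and the 95th percentile 3.18. Both channels of these probes were brighter together on the Ls174T si-BRG1 and si-P300 arrays and on the HEK293T si-control Wnt3A array. The sequences of the probes were not analysed here, and what these probes read was not tested.

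**Figure D4:**
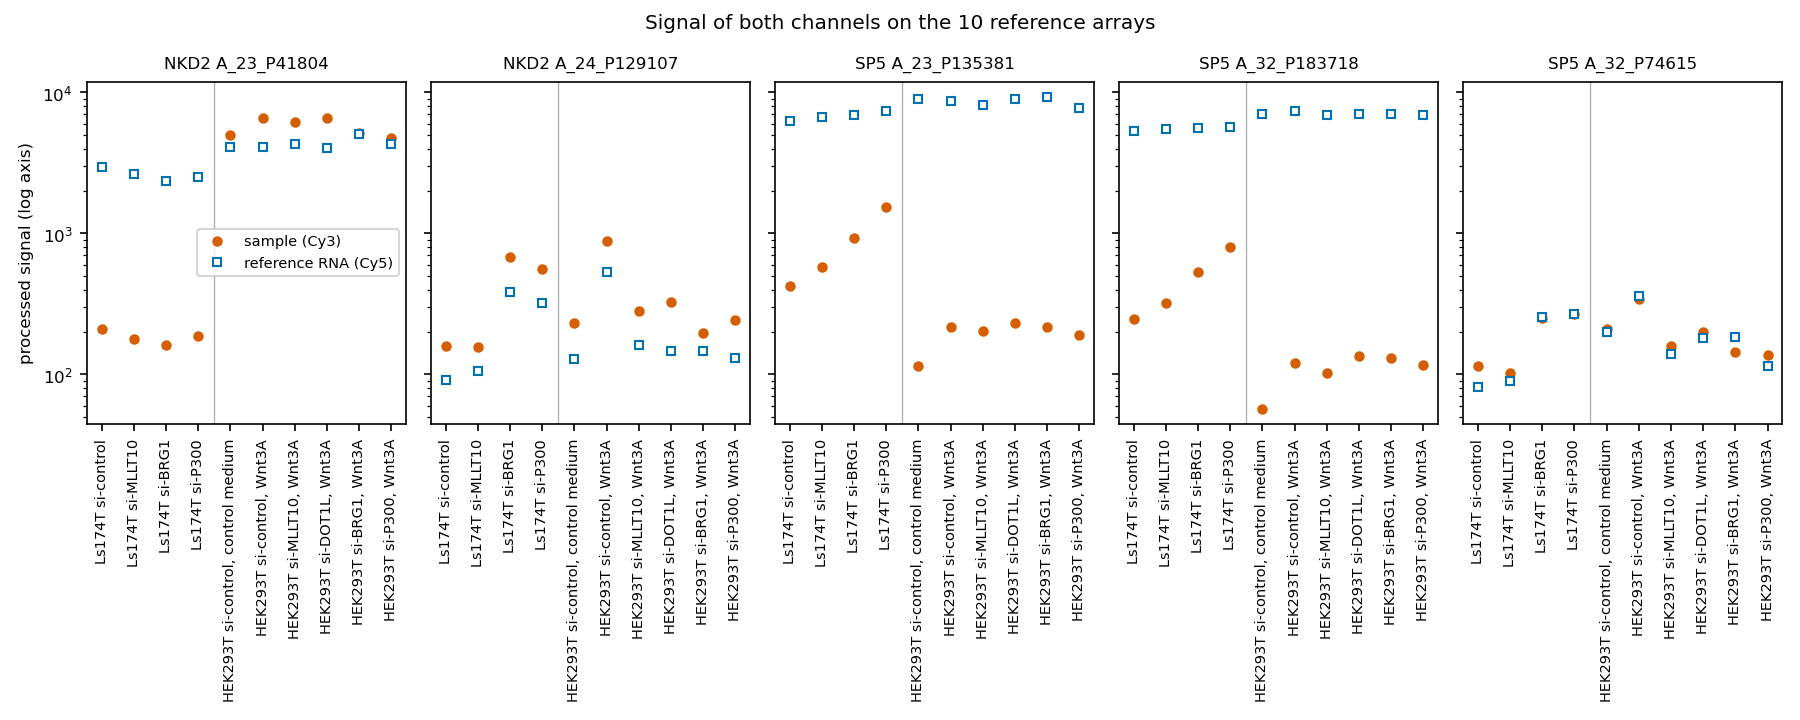
Processed signal (vertical, log axis) of the sample (filled) and of the reference RNA (open) for the 5 probes of NKD2 and SP5 on the 10 reference arrays. The sample signal of SP5 probe A_23_P135381 runs from 423 to 1549 over the Ls174T arrays while its reference signal stays between 6316 and 7436, and both channels of SP5 probe A_32_P74615 move together.

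Other genes of the pathway were counted from 3 lists for comparison. Among 25 further Wnt targets on the array, 16 were measured in the si-b-catenin pair and 8 of them fell more than 2-fold, the largest fall being that of the crypt transcription factor gene ASCL2 (−2.81, program error 0.23), and none rose. With Wnt3A in HEK293T, 5 of 22 rose, led by the cyclin gene CCND1 (1.34, program error 0.41), and none fell. Of 32 other inhibitors, among them Axin, APC, SFRP and TLE genes, 14 were measured in the pair and only AMER1 fell (−1.24, program error 0.20), and with Wnt3A 1 of 25 rose and 2 fell. Of 14 genes of the receptor side on the array, 7 were measured in the pair and none changed, and with Wnt3A 2 of 10 rose, led by ROR1 (0.73, program error 0.31). The counts are of genes, while the medians are over features, so genes with many spots weigh more in them. Median changes in the pair were −0.92 over the 50 features of the further targets, −0.02 over 26 of the other inhibitors and 0.01 over 10 of the receptor side, against −0.02 over all features. With Wnt3A they were 0.43, −0.01 and −0.03, against −0.01, and 27 of the 68 features of the further targets rose, from 5 genes. After si-P300 in Ls174T 3 of 23 further targets fell, led by MYC (−1.29, program error 0.31), and 1 rose. The median over their 69 features was 0.02, as over all features, of which 5.9% changed.

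Genes with a pattern like that of AXIN2 probe A_23_P148015 or SP5 probe A_23_P135381 were ranked by Pearson's r over the 10 reference arrays after the mean of each line was subtracted, among 18778 features well above background. For AXIN2 these were FSCN1 (r = 0.955), CIAO2B (0.926), C1orf159 (0.926), YARS1 (0.913) and ETV4 (0.913), and for SP5 they were SGK1 (0.982), CCDC74B (0.965), PPP1R16B (0.958), ANAPC11 (0.948) and CTSA (0.948). The 10 points share a reference RNA, several share a slide, and the top of 18778 features is high by selection, so these values are descriptions.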

How the data were processed

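The labels and file headers describe 12 Agilent 4x44K human arrays. The authors read them with Feature Extraction (10.5.1.1 in the file headers, 8.5.1.1 in the submitters' processing notes). The deposited intensity columns are median signal, local background and processed signal, already corrected for background and dye. The deposited log10 ratios divide processed Cy5 by Cy3 signal, with the program's error, and the deposited value table repeats them (largest difference 1.56e-05 in log2) with 1 array of the pair turned. Its medians per array run from −0.02664 to 0 in log10, so scale and direction were taken from the scanner files.

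Here all ratios were expressed in log2 as sample over reference or si-b-catenin over si-control, the mean of the pair being 1 value (r = 0.872 between its arrays over features). The methods name reference RNA on every array, the labels of the pair si-control RNA, which was followed. Between reference arrays r was at least 0.546. Changes are differences of 2 arrays, with errors combined in quadrature. Control spots and outlier features were omitted. A change counted past 2-fold (Ls174T) or 1.5-fold (HEK293T), after the methods. RefSeq accessions gave a symbol to 27612 of 29084 features (94.9%). No feature was saturated. The number of arrays limits precision. The alternatives with normexp and loess used limma 3.58.1 in R 4.3.3. For the sample channel alone, the 75th percentile of each array was subtracted from its log2 processed sample signals. For the pair that setting is the difference of both channels scaled in this way, so it remains a ratio. Steps were tested on simulated data. All probes of the members are named, and of the other lists the largest rise or fall. Members and lists were chosen with earlier results of these data known.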

Additional observations from a re-analysis of the deposited data

How the results depend on the processing

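No paired analysis was possible because each condition has 1 sample. Of 1013 recomputed values of 167 member changes, 901 stayed within the program error. Of these, 167 without a filter, 167 with outlier features kept and 162 with the sample channel well above background could not move. Those settings only choose which probes count. With normexp and loess on the backgrounds as scanned 99 stayed and 51 moved. With outlying backgrounds replaced 154 stayed and 13 moved, and with the sample channel alone 140 and 27. In 17 values a change past the threshold turned its sign. All 17 arose with normexp (offset 50) and loess on the backgrounds as scanned, and none when outlying backgrounds were first set to the array's median, the only difference between both settings. Changes short of the threshold turned sign 93 times, 39 and 15 times in these settings, 38 with the sample channel alone and 1 with the second array of the pair alone. The 17 were, against CM in the order si-control with Wnt3A, si-MLLT10, si-DOT1L and then si-BRG1 and last si-P300, DKK1 (−1.36, −1.28, −1.29, −0.52, −1.35), SP5 A_23_P135381 (−2.33, −2.21, −2.27, −1.02, −2.30) and A_32_P183718 (−2.73, −2.71, −2.69, −0.75, −2.74), and NKD1 with Wnt3A (−0.44) and after si-BRG1 against si-control with Wnt3A (0.27). That setting moved the median of all features by up to −0.19 against CM.

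Member probes past the threshold, of the 8 to 14 measured unless another number is given, changed most as follows. Shares of all features past the threshold either way also changed with the setting, so each count has its own background. With normexp on the backgrounds as scanned they rose for Ls174T si-BRG1 and si-P300, for Wnt3A and for si-P300 against CM. They fell there for the pair and for si-P300 against si-control with Wnt3A. With the sample channel alone they rose for Ls174T si-BRG1 and si-P300 and for every siRNA against si-control with Wnt3A. With outlying backgrounds replaced they fell in every comparison. For the si-b-catenin pair 5 became 3 with normexp and loess in either form or when the sample channel had to be well above background, 8 without a filter, and 4 to 9 with 1 array alone. For Ls174T si-BRG1 2 became 7 with normexp, 0 with outlying backgrounds replaced, 5 with the sample channel alone and 4 at 1.5-fold. For Ls174T si-P300 2 became 5, 5 and 4 with normexp, the sample channel alone and 1.5-fold. The Wnt3A count of 5 rises became 3 with outlying backgrounds replaced and at 2-fold, and 4 falls with normexp. Against si-control with Wnt3A, si-MLLT10 went from 1 to 4 with the sample channel alone, 2 without a filter and 0 at 2-fold, si-DOT1L from 0 to 3 with the sample channel alone, si-BRG1 from 4 falls and 1 rise to 4 rises with normexp, 5 falls with the sample channel alone, 3 falls with outlying backgrounds replaced and 0 at 2-fold, and si-P300 from 3 to 1 with either normexp setting, 5 with the sample channel alone and 0 at 2-fold. Against CM, si-P300 went from 3 rises to 7 falls with normexp, and si-MLLT10 from 4 to 1 at 2-fold. The counts with the sample channel alone include NKD2 probe A_24_P129107 and SP5 probe A_32_P74615, whose reference signal varied most among the members. Both fell there after every HEK293T siRNA against si-control with Wnt3A (after si-MLLT10 −1.697 and −1.152). In Ls174T both rose there after si-BRG1 (2.157 and 1.182) and si-P300 (1.852 and 1.266). Other causes were not tested. Signal near background limits DKK4, DKK1 in Ls174T, SP5 in CM and the depleted channel of the pair.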
